A study of Mus musculus with 15 samples.

Results

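Cytotoxic T lymphocytes (CTL) kept in interleukin-2 (IL-2) were compared with CD8+ T cells at 24 h of activation through the T cell receptor (TCR). The comparison took 6 of the 15 RNA-sequencing libraries of the series, 3 of CTL in IL-2 and 3 of activated cells. Its genes were those listed by the same name in both deposited expression tables. This left 10619 genes of the 11836 names found in either table. Another 18 of the 10637 shared names carried differing Entrez IDs and were left out.

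All cells were from P14 mice, whose transgenic TCR recognises the gp33–41 peptide of the lymphocytic choriomeningitis virus glycoprotein. The activated cells were lymph node cells of adult females, pooled from 3 mice per replicate, and sorted as live CD8+ cells after 24 h with peptide at 100 ng/ml. IL-2 at 20 ng/ml, interleukin-12 (IL-12) at 2 ng/ml and the solvent DMSO as vehicle were present in these 24 h. The CTL had been activated for 48 h, washed, and grown for 4 days in 20 ng/ml IL-2, then washed again and given 20 ng/ml IL-2 for the last 24 h. Matched CTL that spent these last 24 h without IL-2, and naive cells sorted from the same pools as the activated cells, were used only within their own tables. For the CTL, the number, sex and age of the mice, the cytokines of the first 48 h and any sort are not given in the sources used here.

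Antigen recognition switches on immediate-early factors such as the NR4A and EGR families, NF-kB and AP-1, and with them cytokines, chemokines and the machinery of growth. IL-2 signals through the kinases JAK1 and JAK3 to the transcription factor STAT5, and it carries activated CD8+ T cells through expansion to CTL. CTL are defined by granules of perforin, which opens the target cell membrane, and granzymes, the proteases that then enter and kill the cell.

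Each table was normalized on its own by the authors, and the group follows the table. Time since antigen, culture, IL-12, sorting and table therefore cannot be told apart, and no test was made between the groups. Levels are given as deposited FPKM (fragments per kilobase of exon, scaled to the mapped fragments of the library) for replicates 1, 2 and 3 in that order. For differences, every library was first brought to the same distribution of values by rank. A difference below is the mean log2(FPKM + 0.1) after this rank matching in CTL minus that in activated cells. A gene was called higher or lower where it differed by at least 4-fold, the 3 libraries of each group did not overlap in rank, and the higher group reached 1 FPKM.

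By this rule 591 genes, 5.57% of those compared, were higher in CTL in IL-2 and 240, or 2.26%, were lower. The median difference over all genes was -0.15. Among the genes higher in CTL, 282 were past 8-fold and 56 past 32-fold, against 80 and 8 of those lower. The split leaned further to higher genes without rank matching, at 652 higher and 187 lower, and less where a difference of 20 points in percentile rank replaced the fold, at 765 and 499. Non-overlap alone was common, since every CTL library was above every activated library for 29.6% of genes and below for 41.1%.

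**Figure D1:**
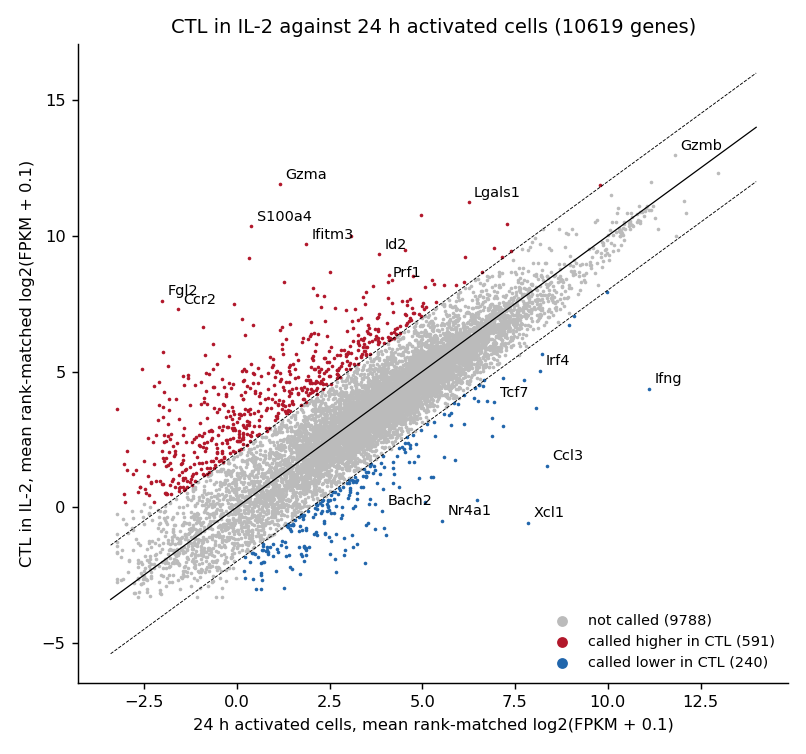
Each point is 1 of the 10619 genes, at its mean rank-matched log2(FPKM + 0.1) over the 3 libraries of 24 h activated cells (horizontal) and over the 3 of CTL in IL-2 (vertical). The solid line marks equal values and the dashed lines a 4-fold difference; 591 genes were called higher in CTL (red) and 240 lower (blue), with Gzma and Xcl1 the farthest from the line.

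Libraries of a group resembled each other closely. Pearson's r of rank-matched values across genes, which are not independent replicates, was 0.990 to 0.992 within CTL, 0.983 to 0.991 within activated cells, and 0.854 to 0.869 between them. The 10 most abundant genes took 9.13 to 9.83% of the summed FPKM in CTL and 6.27 to 6.65% in activated cells. The 5 CD8 T cell markers, Cd3d, Cd3e, Cd3g, Cd8a and Cd8b1, were present in all 6 libraries and summed to 971 to 1042 FPKM in CTL and 637 to 685 FPKM in activated cells. Of the markers of other cells, 1 of 10 for B cells could be compared (Cd79b, 2.74 to 6.30 FPKM in CTL and 2.58 to 3.48 FPKM in activated cells), as could 5 of 17 for myeloid and dendritic cells. The myeloid genes summed to 82.6 to 97.9 FPKM in CTL and 52.3 to 84.3 FPKM in activated cells, where Cst3, a protease inhibitor of many cell types, was the highest, and H2-Aa, a class II antigen-presenting chain, was called lower in CTL (-2.02). This call of H2-Aa was lost without rank matching (-1.76), with scaling to an equal median (-1.80) or sum (-1.79), and without activated replicate 3 (-1.65). Of 4 CD4 T cell markers 2 could be compared, and Zbtb7b, the gene of the helper lineage factor ThPOK, was at 0.63, 0.61 and 0.38 FPKM in activated cells and 16.8, 21.0 and 16.7 FPKM in CTL (4.66). The other, Cd40lg, the gene of CD40 ligand, was lower in every CTL library and not called, at 31.1, 24.5 and 19.1 FPKM against 8.55, 8.26 and 4.73 FPKM (-1.84). Cd4 itself, listed only in the CTL table, was at 0.25, 0.39 and 0.05 FPKM there. For NK cells only Eomes (1 of 8) and for erythroid and stromal cells only Pecam1 (1 of 9), both also expressed by T cells, could be compared, and both were higher in CTL. The part of other cells in the differences was not tested. As in any bulk RNA sample, more cells with a transcript and more transcript per cell cannot be told apart.

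The cytolytic machinery held the gene with the widest difference of all. Gzma, which encodes the granule protease granzyme A (chr13:113093824-113100981, GRCm38.p6), was at 3.67, 1.25 and 1.51 FPKM in activated cells. It stood at 5060.4, 4572 and 5209 FPKM in CTL, a difference of 10.75, and the 9 pairs of libraries gave 9.95 to 11.29. Prf1, the gene of perforin, was at 27.1, 18.1 and 9.02 FPKM in activated cells and 268, 298 and 399 FPKM in CTL. Its difference of 4.21 corresponds to 18.6-fold. Its rank-matched log2 values varied more between the activated pools (standard deviation 0.78) than between the CTL cultures (0.24). Gzmb, the gene of granzyme B, was already at 4049, 2904 and 2488 FPKM at 24 h. In CTL it was the most abundant gene, at 8739.6, 10436 and 11655 FPKM, a difference of 1.17 that was not called although the groups did not overlap.

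Of 22 granule genes and granule inhibitors compared, 8 were called higher, none lower, and the median difference was 1.09. Gzmc, a granzyme of the cluster that also holds Gzmb, was at 2.03, 1.69 and 2.47 FPKM in activated cells and 87.9, 113 and 97.3 FPKM in CTL (5.44). Fasl, the death ligand that CTL carry beside their granules, rested at 1.38, 0.96 and 0.69 FPKM in activated cells and reached 19.6, 20.3 and 27.0 FPKM in CTL (4.18). The other 14 members, among them genes of granule secretion, were not called. Granzymes of the cluster are near copies of each other, and how the authors' counting divided shared reads between them is not given, so their separate levels are uncertain.

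**Figure D2:**
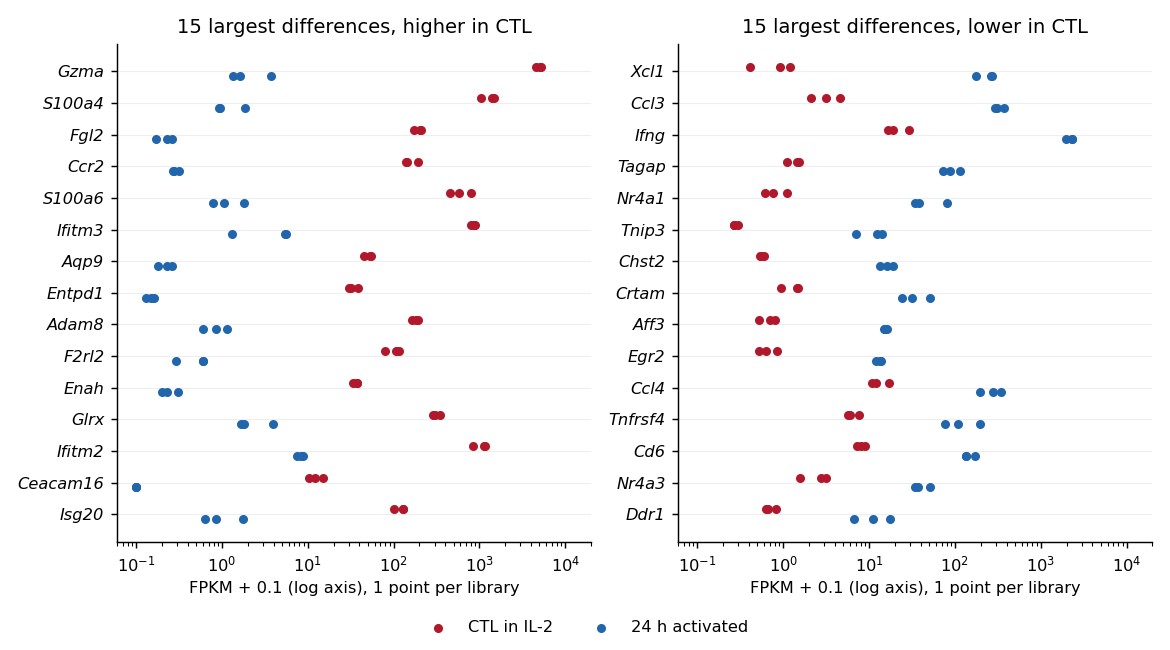
FPKM + 0.1 on a log axis in each of the 3 libraries of CTL in IL-2 (red) and of 24 h activated cells (blue), for the 15 genes with the widest difference in each direction among those called at 10 FPKM or more. In every row the groups stand apart, from Gzma (10.75) to Isg20 (6.78) among the genes higher in CTL and from Xcl1 (-8.43) to Ddr1 (-4.16) among those lower.

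Chemokines and interferon gamma were on the other side. Xcl1, the gene of lymphotactin, a chemokine that draws cross-presenting dendritic cells, was at 178, 267 and 265 FPKM in activated cells and 0.31, 1.11 and 0.82 FPKM in CTL (-8.43). Ccl3 was at 293, 312 and 371 FPKM against 1.99, 4.47 and 3.01 FPKM (-6.82), and Ccl4 was 21.0-fold lower in CTL. Both encode inflammatory chemokines. Of 7 chemokines compared, 4 were lower in CTL and 1 higher, with a median of -2.67. The higher one was Ccl5, a chemokine typical of effector and memory CD8+ T cells, at 3.43, 3.87 and 3.84 FPKM in activated cells and 106, 97.6 and 49.9 FPKM in CTL (4.37).

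Ifng, the gene of interferon gamma (chr10:118441046-118445894), was among the most abundant genes of activated cells at 1949.8, 2290.0 and 2299 FPKM. In CTL it was at 16.3, 18.8 and 28.9 FPKM, a difference of -6.74 or 107-fold. It was the only 1 of 26 cytokines called lower, and 8 were called higher. Tnf, also a cytokine of armed T cells, gave no such gap, at 60.2, 48.5 and 65.8 FPKM in activated cells and 42.8, 55.8 and 59.0 FPKM in CTL (-0.05, the pairs of libraries from -0.47 to 0.37). Among the higher cytokines, Fgl2, a secreted fibrinogen-like protein of regulatory and effector T cells, was below 0.2 FPKM in every activated library and at 211, 171 and 204 FPKM in CTL (9.63). Il10, the gene of the anti-inflammatory cytokine interleukin-10, was at 6.28, 2.99 and 7.06 FPKM against 66.9, 69.7 and 100.2 FPKM (3.89). Il24, a cytokine of the same family and gene cluster, was 11-fold higher, and Ebi3, the shared subunit of interleukin-27 and interleukin-35, 8.79-fold higher.

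Genes of migration were higher in CTL in number. Of 28 chemokine and homing receptors compared, 9 were higher and 1 lower, and the median difference was 1.32. Ccr2, which guides cells to inflamed tissue, was at 0.18, 0.17 and 0.22 FPKM in activated cells and 192, 139.7 and 144 FPKM in CTL (8.90). Cxcr6, a receptor of tissue-resident and effector T cells, was 20.2-fold higher. Itgb7, the integrin chain used for entry into gut, was at 20.5, 17.4 and 12.7 FPKM against 241, 214 and 171 FPKM (3.63). The single lower gene was Cxcr5, a receptor for B cell follicles, at 3.33, 3.46 and 2.78 FPKM against 0.21, 0.21 and 0.16 FPKM (-3.78). Ccr7, a receptor for lymph node homing, was lower in every CTL library, by 3.31-fold, and was not called. S1pr1, the receptor for exit from lymph nodes, overlapped between the groups at 5.44, 2.76 and 3.16 FPKM against 10.3, 9.92 and 4.14 FPKM.

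Several of the widest differences were of genes with other roles. S100a4, a calcium-binding protein linked to motility, was at 0.84, 0.82 and 1.78 FPKM in activated cells and 1468, 1419 and 1047 FPKM in CTL (9.96). S100a6, its neighbour on chromosome 3, was at 0.68, 0.95 and 1.73 FPKM against 789, 573 and 458 FPKM (8.85). Lgals1, the gene of galectin-1, went from already abundant, at 118, 76.6 and 53.6 FPKM, to 1979, 2782 and 2716 FPKM, with pairs of libraries from 4.34 to 5.61. The membrane and matrix genes Adam8 (a metalloprotease), Aqp9 (a glycerol and water channel), F2rl2 (a protease-activated receptor) and Enah (an actin regulator) were each past 100-fold higher. Glrx, which reverses glutathionylation of proteins, was 131-fold higher. Ceacam16 had blank cells, which were read as 0, for all 3 activated libraries and was at 12, 10.2 and 15.1 FPKM in CTL.

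Genes of the interferon response formed the list with the most genes called. Of 40 compared, 18 were higher in CTL and none lower, and the median difference was 1.62. Every CTL library was above every activated library for 33 of them and below for 2, beside 29.6% above and 41.1% below of all genes. Isg20, an antiviral exonuclease, was at 0.54, 0.76 and 1.67 FPKM in activated cells and 102, 129.7 and 129 FPKM in CTL (6.78). Mx1, a dynamin-like antiviral GTPase, was at 0 (a blank cell), 0.07 and 0.27 FPKM against 25.4, 20.7 and 19.5 FPKM (6.69). The guanylate-binding proteins Gbp6 and Gbp4, which attack vacuoles of intracellular pathogens, were 22.7-fold and 20.2-fold higher. The list included exceptions, as Gbp5 and Ifit3, picked here after their values were seen, were at -0.68 and -1.88. Outside the list, Ifitm3 and Ifitm2, membrane proteins that block entry of viruses, were at 854, 879 and 799 FPKM and at 852, 1121 and 1158 FPKM in CTL. In activated cells Ifitm3 was at 5.52, 5.29 and 1.23 FPKM and Ifitm2 at 8.28, 7.33 and 8.77 FPKM. The 2 genes are near copies, as are many of the Gbp genes, so reads shared between copies leave their separate levels uncertain. Ifngr1, a chain of the interferon gamma receptor, was also higher in CTL (23.8, 17.6 and 14.2 FPKM against 158, 139.6 and 143 FPKM, 3.01).

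Interferon response genes share a promoter element, bound by the IRF and STAT factors, whose core repeats the letters GAAA after a gap of any 2 bases. RefSeq promoter windows of GRCm38.p6, from 250 bases before the start site to 50 after, were found for 7979 of the genes compared. The repeat was searched on both strands, and a gene was counted where any of its windows held it. Those counted were 3.81% of all genes with a window, 8.43% of the 427 higher in CTL, 3.23% of the 186 lower, and 18 of the 29 interferon response genes. Of the 10 interferon response genes called higher that had a window, 6 held it. The 100 bases before the start site are shown for 4 of these, chosen after their values were seen, with the repeat in capitals as read on the gene's strand, to let the element be compared between genes of the list. Gbp7 (4.31) lies at chr3:142530236-142530335 on the plus strand, Oas3 (3.79) at chr5:120777660-120777759 on the minus strand, Gbp3 (2.98) at chr3:142559944-142560043 on the plus strand and Irgm2 (2.19) at chr11:58214877-58214976 on the plus strand.
Gbp7: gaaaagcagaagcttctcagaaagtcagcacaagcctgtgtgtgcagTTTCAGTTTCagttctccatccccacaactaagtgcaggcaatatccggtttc
Oas3: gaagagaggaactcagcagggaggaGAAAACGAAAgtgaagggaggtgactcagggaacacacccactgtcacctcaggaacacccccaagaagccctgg
Gbp3: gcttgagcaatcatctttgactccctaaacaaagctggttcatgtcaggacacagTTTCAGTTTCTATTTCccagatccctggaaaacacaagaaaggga
Irgm2: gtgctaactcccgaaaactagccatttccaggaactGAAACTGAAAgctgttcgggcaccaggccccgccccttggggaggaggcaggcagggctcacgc
In Gbp7 and Gbp3 the element runs on the opposite strand, as TTTC repeated, and in Gbp3 a pair of matches overlaps. The first match starts 53, 75, 45 and 64 bases before the start site in Gbp7, Oas3, Gbp3 and Irgm2. Counted in the same way, the AP-1 motif TGANTCA was held by 12.2% of genes higher in CTL, 7.53% of genes lower and 5.49% of all. For the STAT-type motif TTCNNNGAA these were 11.7%, 10.8% and 8.59%. Of the 29 interferon response genes with a window, 27.6% held the AP-1 motif and 37.9% the STAT-type motif. A match in a window is a description of its letters and not of a bound site.

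The transcription factors divided between the groups. Of 28 effector factors compared, 8 were higher in CTL and 5 lower. Id2, an inhibitor of E proteins that sustains effector cells, was at 13.1, 10.8 and 19.6 FPKM in activated cells and 575, 693 and 835 FPKM in CTL (5.49). Eomes, the T-box factor of effector and memory cells, was at 12.4, 14.8 and 23.8 FPKM against 75.8, 104 and 163 FPKM (2.73). Tbx21, the gene of the related factor T-bet, ran the other way, at 80.8, 83.1 and 95.4 FPKM against 15.2, 18.7 and 15.8 FPKM (-2.35). Irf4, which scales with the strength of the TCR signal, was at 295, 302 and 270.2 FPKM against 36.6, 34.1 and 27.1 FPKM (-3.14). Maf, Epas1 and Gata3, factors known for roles in helper cells, hypoxia and T cell identity, were 30.2-fold, 28.7-fold and 12.9-fold higher in CTL. Prdm1, the gene of Blimp-1, was higher in every CTL library but only by 2.29-fold.

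Of 24 factors of naive and stem-like T cells, 4 were lower in CTL and 1 higher, and the median difference of 0.05 was close to that of all genes. Tcf7, the gene of TCF-1, was at 104, 120.1 and 155 FPKM in activated cells and 15.6, 20.1 and 10.3 FPKM in CTL (-3.06). Bach2, a repressor that holds back effector genes, was at 14, 17.1 and 13.5 FPKM against 0.88, 0.78 and 1.15 FPKM (-4.04). Myb, which preserves self-renewal of T cells, was the higher one, at 8.17, 4.07 and 4.58 FPKM against 28.7, 30.6 and 25.3 FPKM (2.32). Klf2, a factor of quiescence, was low on both sides, at 0.39, 0.38 and 1.46 FPKM against 2.47, 2.51 and 2.30 FPKM.

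The early response to the TCR held more genes called lower in CTL, by number, than any other list. Of 42 NR4A, EGR, AP-1 and NF-kB genes compared, 13 were lower and 2 higher, with a median of -1.12. Nr4a1, the gene of the orphan receptor NUR77 that reports recent TCR signals, was at 38.5, 34.3 and 80.1 FPKM in activated cells and 0.51, 1.01 and 0.66 FPKM in CTL (-6.04). Egr2 was at 13.2, 13.6 and 12 FPKM against 0.42, 0.75 and 0.53 FPKM (-4.51), and Nr4a3 was 18.1-fold lower. Both follow antigen in the same way as Nr4a1. Spry1, a feedback inhibitor of the RAS pathway, was 12.4-fold lower. The 2 higher genes were phosphatases, of which Dusp6 was at 2.86, 3.04 and 3.68 FPKM against 62.4, 74.2 and 84.9 FPKM (4.46) and Dusp1 was 4.89-fold higher. Both remove phosphate from MAP kinases. Of their relatives in the list, named after their values were seen, Dusp4 was called lower, at 25.7, 19.2 and 17.2 FPKM against 3.76, 5.17 and 5.11 FPKM (-2.20). Dusp2 was at -0.02 and Dusp5 at 0.83, neither called. Tagap and Tnip3, an activation-linked GTPase regulator and an inhibitor of NF-kB, were outside the list and 73.9-fold and 45.7-fold lower in CTL. Of 14 genes that respond to heat and handling, 1 was higher and 1 lower, Dusp1 and Atf3, which the list shares with the early response. The median of the 14 was -0.94. In every CTL library 9 were lower and 2 higher, beside 41.1% lower and 29.6% higher of all genes. The part of these 14 in the lower early response was not tested.

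**Figure D3:**
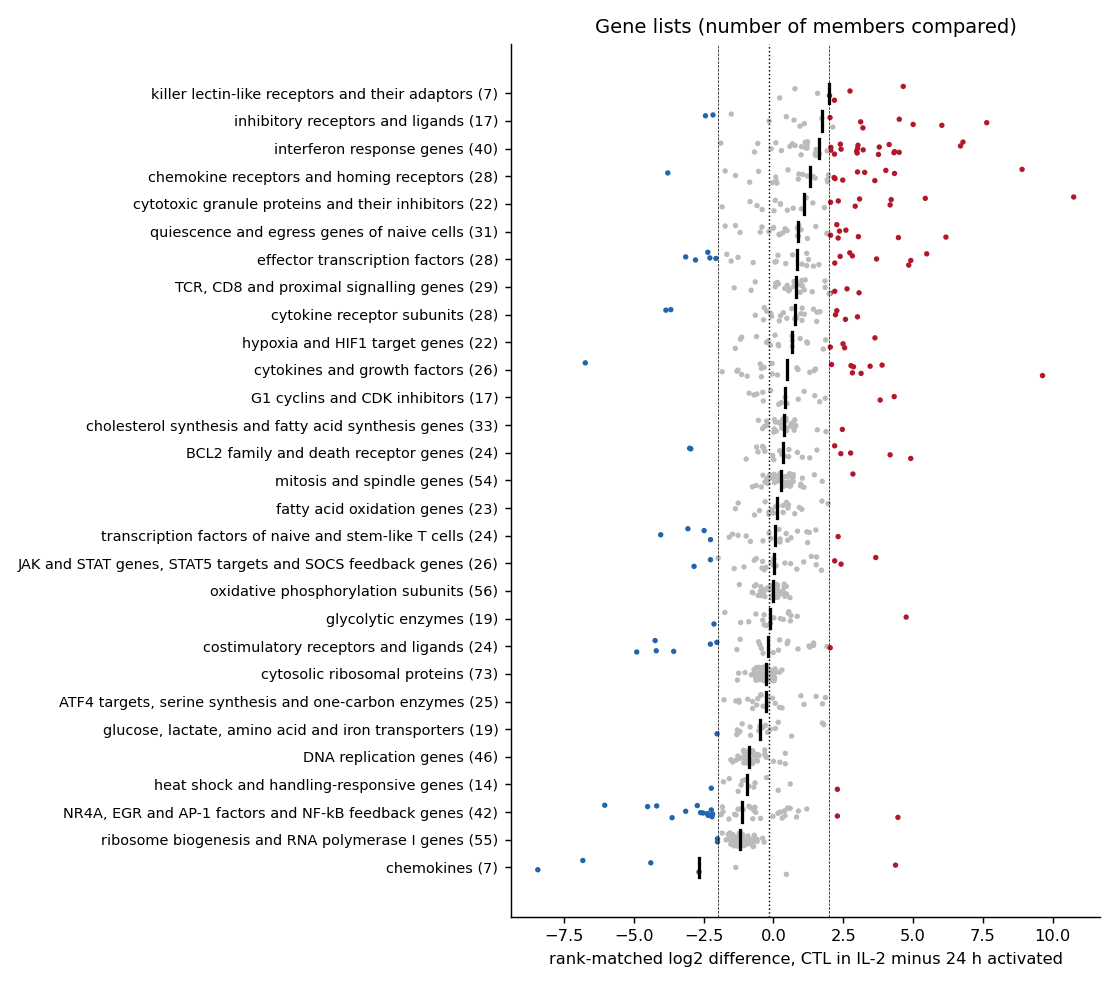
Rank-matched log2 difference, CTL in IL-2 minus 24 h activated cells, of each member of 29 gene lists, sorted by the list's median (thick black mark), with genes called higher in red, lower in blue and others in grey. Dashed lines mark 4-fold either way and the dotted line the median of all genes at -0.15; chemokines had the lowest median (-2.67) and killer lectin-like receptors the highest (2.01).

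The chain from the TCR to its first signals was not lower in CTL. Of 29 such genes 4 were higher and none lower (median 0.82). Rasgrp1, which activates RAS after TCR engagement, was at 10.8, 10.6 and 13.4 FPKM in activated cells and 101, 94.1 and 92.7 FPKM in CTL (3.06). Grap2, an adaptor of the LAT complex, was 4.57-fold higher, and Sla2, an inhibitor of TCR signals, was also higher (2.63). Cd8a was lower in every CTL library at 117, 109.6 and 107 FPKM against 167, 187 and 189 FPKM (-0.65), and Cd3e was higher in each, at 199, 251.7 and 232 FPKM against 136, 107 and 102 FPKM (1.01).

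Of 24 costimulatory genes, 6 were called lower in CTL and 1 higher, with a median of -0.19 near that of all genes. In every CTL library 9 were lower and 6 higher, beside 41.1% lower and 29.6% higher of all genes. Tnfrsf4, the gene of OX40, was at 198, 109.9 and 76.5 FPKM in activated cells and 7.62, 5.96 and 5.61 FPKM in CTL (-4.24). Cd6, a scavenger-family receptor of the T cell synapse, was at 169.7, 136 and 133 FPKM against 7.20, 8.83 and 8.03 FPKM (-4.20), and its relative Cd5 was 11.9-fold lower. Crtam, which marks T cells after strong activation, was 29.7-fold lower. Tnfrsf9, the gene of 4-1BB, and Icos overlapped between the groups, and Cd28 was lower in every CTL library by 2.29-fold.

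Of 17 inhibitory receptors and ligands, 7 were higher in CTL and 2 lower (median 1.73). Entpd1, the gene of CD39, which breaks down extracellular ATP, was at or below 0.06 FPKM in activated cells and at 30.4, 32.1 and 38.5 FPKM in CTL (7.63). Lgals3, the gene of galectin-3, was at 3.19, 1.51 and 11.3 FPKM against 251, 292 and 268 FPKM (6.03). The checkpoint genes Lag3, Ctla4 and Pdcd1 were on the other side. Lag3 was at 221, 156 and 90.1 FPKM against 25.4, 24.4 and 30.7 FPKM (-2.43). Ctla4 was at 212, 103 and 45.2 FPKM against 29.0, 19.8 and 18.6 FPKM (-2.16), and without activated replicate 1 its difference was -1.58 and no longer called. Pdcd1, the gene of PD-1, was 2.85-fold lower and not called. Of other inhibitory receptors, named after their values were seen, Cd160 was called higher (2.03), and Cd96 (1.73) and Tigit (0.46) were not called. Of 7 killer lectin-like receptors and adaptors, 4 were higher (median 2.01). Among them was Klrd1, the gene of CD94, at 3.64, 3.80 and 3.38 FPKM against 34.4, 20.1 and 25.1 FPKM (2.74). Genes of this family share sequence, so their separate levels are uncertain.

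Chains of the IL-2 receptor were not called. Il2ra, the gene of the high-affinity chain CD25, was at 652, 517 and 501 FPKM in activated cells and 554, 524 and 445 FPKM in CTL (-0.33, overlapping). Il2rb, the signalling chain shared with the interleukin-15 receptor, was at 286, 247 and 237 FPKM against 495, 566 and 599 FPKM (1.03). Of 26 JAK, STAT and STAT5 target genes, 3 were higher and 2 lower. Socs2, a feedback inhibitor that STAT5 induces, was at 3.77, 3.07 and 5.49 FPKM against 62.5, 57.3 and 40.7 FPKM (3.66). Stat5a itself was lower in CTL, at 112, 100.2 and 116 FPKM against 14.6, 15.9 and 14.6 FPKM (-2.84). Pim2, a kinase that STAT5 induces, was at 449, 457 and 504 FPKM against 91.0, 112 and 108 FPKM (-2.26).

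Of 28 cytokine receptor subunits 4 were higher and 2 lower. Il6st and Il6ra, which together form the interleukin-6 receptor, were the lower ones. Il6st was at 28.3, 27.9 and 35.4 FPKM in activated cells and 2.21, 1.76 and 2.65 FPKM in CTL (-3.85). Il6ra was low on both sides, at 1.30, 1.33 and 1.38 FPKM against 0.02, 0.06 and 0.05 FPKM (-3.67). The call of Il6ra was lost with a pseudocount of 1 FPKM (-1.28) and by percentile rank. Tgfbr2, a receptor for TGF-beta, was at 10.2, 10.4 and 10.7 FPKM against 58.5, 62.0 and 64.5 FPKM (2.58). Il7r, the receptor chain for the survival cytokine interleukin-7, was at 12.4, 9.82 and 5.94 FPKM against 61.9, 50.1 and 26.6 FPKM (2.27), and at 1.98 without activated replicate 3.

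Growth and division gave small differences that were even across many genes. Of 55 ribosome biogenesis genes, 2 were called lower, yet 54 were lower in every CTL library, and the median was -1.20. Of all genes, 41.1% were lower and 29.6% higher in every CTL library. The called pair, Utp14a and Rrp12, stood just past the limit (-2.003 and -2.004) and each lost the call when any of several libraries was left out. For 73 ribosomal proteins the median was -0.28, with none called. Of 46 DNA replication genes 40 were lower in every CTL library (median -0.86) and none was called, with Mcm2, a subunit of the replicative helicase, at 131, 155 and 154 FPKM against 101, 122 and 122 FPKM (-0.31). Mitosis and spindle genes did not share this, since 27 of 54 were higher and 6 lower in every CTL library (median 0.27). Mki67, the gene of the proliferation marker Ki-67, overlapped at 115, 65.1 and 59.5 FPKM against 103, 83.6 and 108 FPKM. Ccnb2, a cyclin of mitosis, was the 1 mitosis gene called, 7.18-fold higher. Of 17 G1 cyclins and CDK inhibitors 2 were higher, Cdkn1a, the gene of the cell cycle inhibitor p21, by 20.0-fold and Cdkn3 by 14.1-fold. Myc, which drives growth in activated T cells, was at 398, 293 and 359 FPKM against 158, 248 and 238 FPKM (-0.74).

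Metabolic genes were mostly within 4-fold. Among 19 transporters of glucose, lactate, amino acids, iron and folate, 1 was lower, the folate importer Slc19a1 (-2.02, and -1.98 without CTL replicate 1). The other 18 were not called. Slc7a5, the large neutral amino acid transporter, and Slc2a1, the glucose transporter GLUT1, overlapped in rank between the groups. Of 19 glycolytic enzymes, Aldoc was higher (2.68, 0.73 and 0.42 FPKM against 28.6, 32.1 and 35.3 FPKM, 4.75) and Ldhb lower. No gene was called among 56 subunits of oxidative phosphorylation (median -0.02), 23 of fatty acid oxidation (0.13) or 25 ATF4 targets (-0.28). Of 33 cholesterol and fatty acid synthesis genes only the desaturase Scd1 was called, 5.52-fold higher. Of 22 hypoxia genes 4 were higher and none lower (0.67). Bnip3, a mitophagy receptor induced in low oxygen, was at 21.9, 13.5 and 2.47 FPKM in activated cells and 122, 109 and 120.0 FPKM in CTL (3.63), and its activated pools differed by more than any pair of CTL cultures.

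Genes of survival, of death and of rest were also in part higher in CTL. Of 24 BCL2 family and death receptor genes, 5 were higher and 2 lower. Bcl2, the survival factor itself, was at 16.9, 14.4 and 10.8 FPKM against 69.4, 56.5 and 60.2 FPKM (2.19, at the limit without activated replicate 3, 2.00). Casp1, the inflammatory caspase, was 30.2-fold higher. Also higher were Bbc3 (2.76) and Pmaip1 (2.41), members that promote cell death, and Fasl, given above. The lower pair, Bcl2a1b and Bcl2a1d, are survival members like Bcl2. They are near copies of each other and their separate levels are uncertain. Of 31 quiescence and egress genes, 8 were higher and none lower, with a median of 0.89. Txnip, which restrains glucose uptake, was at 26.1, 20.8 and 21.8 FPKM against 147, 146 and 121 FPKM (2.59), and Ly6c2, a surface marker of effector and memory CD8+ T cells with a near copy in Ly6c1, was at 5.17, 4.19 and 7.08 FPKM against 297, 435 and 576 FPKM (6.17).

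The remaining libraries of each table placed these genes against a further state. Within a table limma was applied to log2(FPKM + 0.1), with Benjamini-Hochberg adjustment over all its genes and calls at an adjusted p below 0.05 and over 2-fold. IL-2 withdrawal for 24 h, measured in the CTL table, gave 14.3% of genes higher and 13.9% lower. Activation, 24 h activated against naive cells in the CD8 table, gave 25% higher and 23.7% lower. These fits share their CTL in IL-2 or activated libraries with the comparison above, so their values are set side by side and are no separate support for it.

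Prf1, Gzmb and Gzma were lower without IL-2. Prf1 was at 13.3, 14.6 and 13.7 FPKM in CTL without IL-2, a change of -4.51 ± 0.13 (SE, limma adjusted p = 6.07e-08). Gzmb was at 499, 507 and 276 FPKM, a change of -4.63 ± 0.22 (limma adjusted p = 3.57e-07). Gzma kept 1894, 1874 and 1804 FPKM and fell by 1.41 ± 0.11 (limma adjusted p = 2.93e-06). In naive cells Prf1 was at 42.1, 43.2 and 45.4 FPKM, and it was lower after activation by -1.40 ± 0.40 (limma adjusted p = 0.00666), or -0.97 and under 2-fold without activated replicate 3. Gzma was at 4.56, 4.85 and 3.07 FPKM in naive cells. Activation left its change, of -1.05 ± 0.34, just past the limits (limma adjusted p = 0.013), and without activated replicate 2 it was -0.76 and not called (limma adjusted p = 0.06).

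The cytokine genes higher in CTL divided by their response to IL-2. Il10 fell to 0.25, 0.39 and 0.16 FPKM without IL-2 (-7.78 ± 0.24, limma adjusted p = 6.07e-08) and Il24 to 0.22, 0.30 and 0.09 FPKM (-7.24 ± 0.26, limma adjusted p = 1.11e-07). Fgl2 was at 240.2, 247 and 232 FPKM without IL-2 and was not called (0.30 ± 0.09). Ccl5 rose further, to 1586, 1724 and 1654 FPKM (4.36 ± 0.24, limma adjusted p = 5.67e-07), while it had not been called after activation (0.42 ± 0.26, limma adjusted p = 0.159). Ifng fell from its low CTL level to 0.81, 0.97 and 0.51 FPKM (-4.63 ± 0.25, limma adjusted p = 5.69e-07). Xcl1 rose on withdrawal by 2.00 ± 0.35 (limma adjusted p = 0.000658), yet only to 3.25, 2.51 and 3.25 FPKM.

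**Figure D4:**
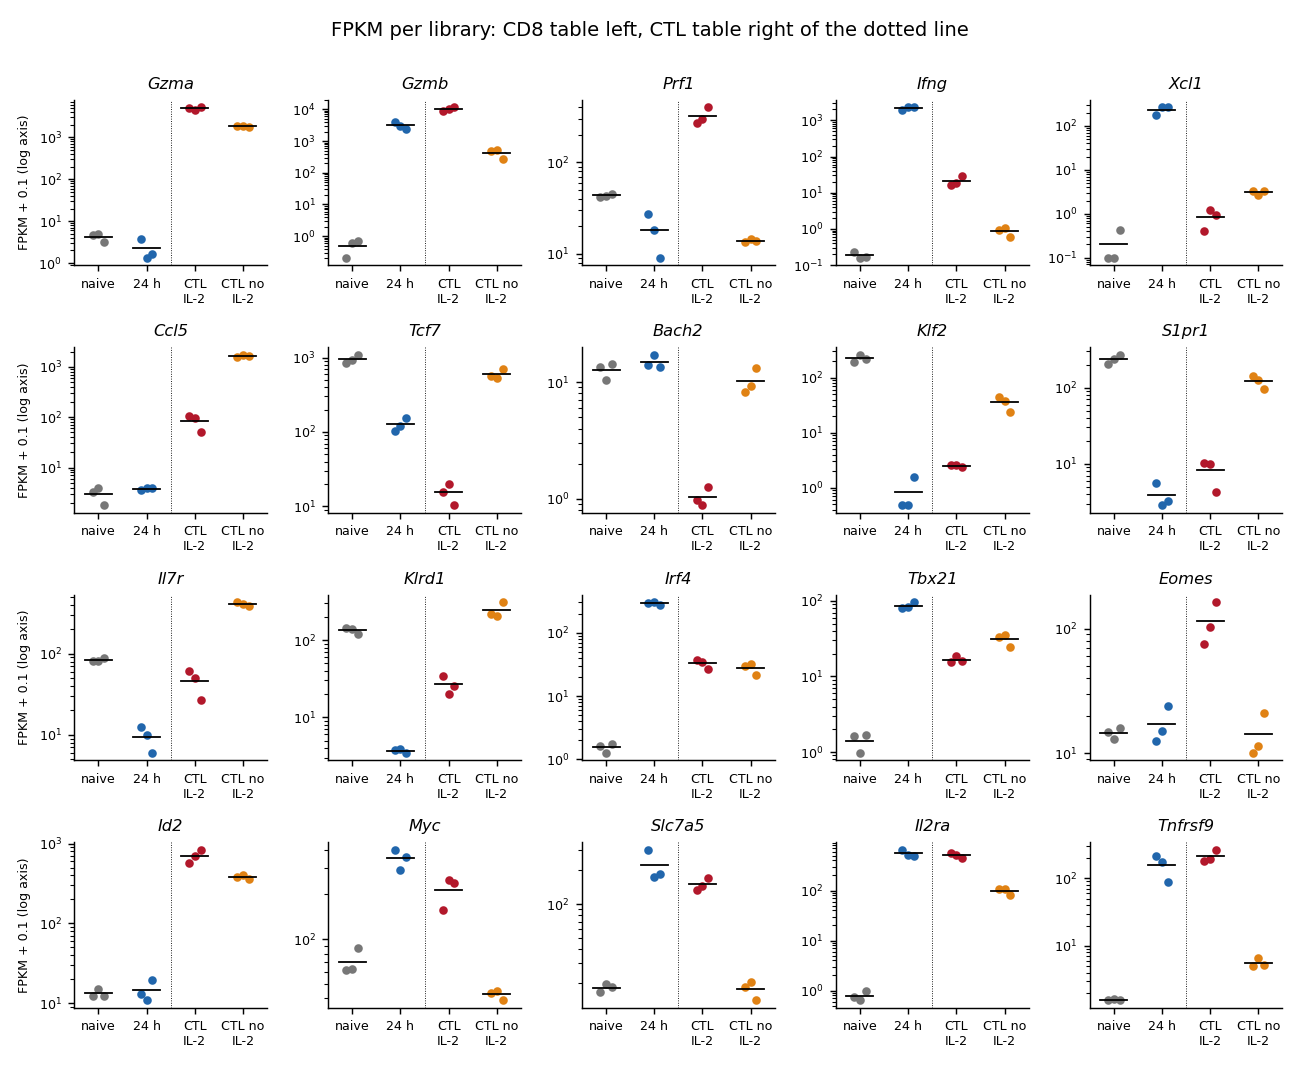
FPKM + 0.1 on log axes for 20 genes in each library of naive and 24 h activated cells (left of each dotted line, CD8 table) and of CTL with and without IL-2 (right, CTL table), with a bar at the mean of each 3. Levels left and right of the line come from separately normalized tables; Prf1, Gzmb and Il2ra are lower and Tcf7, S1pr1 and Il7r higher in CTL without IL-2 than in CTL in IL-2.

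Tcf7, Bach2, Klf2, S1pr1, Il7r and Ccr7 were higher without IL-2. Tcf7 was at 564, 523 and 710.0 FPKM in CTL without IL-2, a change of 5.32 ± 0.21 (limma adjusted p = 1.75e-07), and its naive level was 838, 912 and 1088 FPKM. Bach2 was at 8.15, 9.17 and 13.1 FPKM (3.29 ± 0.21, limma adjusted p = 1.08e-06). It stood at 13.2, 10.3 and 14.1 FPKM in naive cells, and activation gave no call for it (0.24 ± 0.14, limma adjusted p = 0.131). Klf2 was higher by 3.76 ± 0.20 and S1pr1 by 3.98 ± 0.31 (limma adjusted p = 5.58e-07 and 3.24e-06). Il7r reached 430.0, 414 and 388 FPKM (3.23 ± 0.25, limma adjusted p = 3.38e-06). Ccr7 was higher by 1.48 ± 0.15 (limma adjusted p = 2.09e-05).

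Among effector factors the response to IL-2 was uneven. Eomes was at 9.97, 11.3 and 20.8 FPKM without IL-2 (-3.02 ± 0.31, limma adjusted p = 1.87e-05), whereas Irf4 was not called (-0.25 ± 0.16, limma adjusted p = 0.188). Tbx21 (0.88 ± 0.15) and Id2 (-0.87 ± 0.13) passed the adjusted p of limma, at 0.000457 and 0.000214, but not the 2-fold limit. Tbx21 was past it without replicate 3 of CTL without IL-2 (1.05), as was Id2 without replicate 1 of CTL in IL-2 (-1.002). Id2 at 24 h of activation was where it stood in naive cells (12.2, 15.0 and 12.3 FPKM), with a change of 0.10 ± 0.20 (limma adjusted p = 0.672).

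Several receptors and adaptors higher in CTL than in activated cells had been lower after activation than in naive cells. Klrd1 was at 142, 141 and 120.3 FPKM in naive cells, changed by -5.18 ± 0.11 on activation (limma adjusted p = 2.22e-11), and was at 220.0, 208 and 309 FPKM in CTL without IL-2. Itgb7 and Cxcr6 changed on activation by -4.38 ± 0.14 and -3.90 ± 0.16 (limma adjusted p = 2.75e-10 and 1.7e-09). Their naive levels were 353, 345 and 338 FPKM and 63.6, 65.0 and 52.5 FPKM. Rasgrp1 and Grap2 likewise changed by -3.12 ± 0.12 and -2.90 ± 0.15 (limma adjusted p = 1.3e-09 and 1.27e-08). Cd6 differed in this, since naive cells had 168, 149.7 and 182 FPKM and activation gave no call (-0.20 ± 0.13, limma adjusted p = 0.172). Stat5a and Pim2 were higher after activation by 1.97 and 2.46 (limma adjusted p = 1.69e-07 and 9.26e-09).

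Several genes that overlapped in rank between CTL in IL-2 and activated cells, and Myc and Mcm2, were lower in CTL without IL-2. Tnfrsf9 was at 4.96, 6.46 and 5.14 FPKM (-5.24 ± 0.15, limma adjusted p = 6.07e-08) and Il2ra at 108, 106 and 82.1 FPKM (-2.37 ± 0.12, limma adjusted p = 4.72e-07). Slc7a5 fell by 3.09 ± 0.14 and Slc2a1 by 1.79 ± 0.13 (limma adjusted p = 3e-07 and 2.26e-06). Tnf fell by 3.34 ± 0.14 (limma adjusted p = 1.96e-07) and Myc by 2.31 ± 0.16 (limma adjusted p = 1.64e-06). Ctla4, lower in CTL in IL-2 than in activated cells, rose by 2.56 ± 0.15 (limma adjusted p = 8.98e-07). Mcm2 fell by 1.62 ± 0.14 (limma adjusted p = 6.91e-06), and Mki67 was not called (-0.14 ± 0.10, limma adjusted p = 0.241).

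Genes listed in only one of the tables could not be compared. At a mean of 10 FPKM or more there were 45 in CTL in IL-2 that the CD8 table does not list, and 55 in activated cells that the CTL table does not list. Named after their values were seen, those in CTL included the granzymes Gzmd (205, 237 and 217 FPKM) and Gzme (131, 156 and 153 FPKM), Ifitm1 (1505, 1921 and 1732 FPKM), Spp1, the gene of osteopontin (301, 300.0 and 420 FPKM), and Havcr2, the gene of the inhibitory receptor TIM-3 (45.4, 38.3 and 56.1 FPKM). Those in activated cells included Btla, an inhibitory receptor (29.3, 29.4 and 32.6 FPKM), Cd83 (23.8, 23.9 and 25.4 FPKM) and Il2, the gene of interleukin-2 (4.15, 9.35 and 18.8 FPKM). Each table lists only genes that passed the authors' filter on low counts within it.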

How the data were processed

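RNA-sequencing libraries were made with the TruSeq Stranded mRNA kit. Per the methods, the authors aligned reads to mm10 with STAR 2.5.2b, counted RefSeq genes with Subread 1.5.1, filtered and TMM-normalized each table with edgeR, and deposited FPKM values over summed exon length, rounded to 2 decimals. Whether counting used strand, and reads per library, are not given in the sources used here, so no depth or counting interval is given. Blank cells of the CD8 table were read as 0. CTL were grouped by title, since the treatment labels of replicates 2 and 3 name another interleukin.

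Values were rank-matched over the 10619 genes in the 6 libraries (Python 3.11.15, pandas 2.3.3): the value at each rank was the mean of log2(FPKM + 0.1), with ties averaged. Calls needed a 4-fold difference, no overlap and 1 FPKM, with no test between tables. Within tables, limma 3.58.1 with an intensity trend was fitted to all 11211 genes of the CTL table and, with naive, activated and inhibitor-treated cells, all 11262 of the CD8 table; p-values measure the spread between these replicates. Both procedures were also run on simulated data with set changes, which did not imitate effects of the table on single genes.

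The genes named are the 15 widest differences each way at 10 FPKM or more, up to 4 called members each way of each list, and a fixed set of T cell genes, with exceptions marked in the text; a few genes that meet this rule are not reported here. The members and lists were chosen with earlier results of these data known. Same-numbered CTL libraries deviated together only weakly (r = 0.12, 0.17 and 0.26 over 10263 genes), and other pairs gave -0.20 to 0.09. Values this small do not settle whether the numbers pair these libraries. Naive and activated libraries come from divided pools per the labels, but same-numbered ones gave r = -0.14, 0.23 and -0.18 over 10072 genes. The highest r there was 0.38, for activated replicate 1 with naive replicate 3, so whether those numbers follow the pools is not settled. Across tables no pairing exists. Alternatives were other scalings, fold limits, pseudocounts, minimum levels, a replicate block, leaving out each library and, chosen after seeing the data, other matchings of gene names.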

Additional observations from a re-analysis of the deposited data

How the results depend on the processing

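Genes higher in CTL in IL-2 numbered 1404 at 2-fold and 282 at 8-fold in place of 591, and genes lower 1382 and 80 in place of 240. The genes lower were 499 by 20 points of percentile rank, 92 with a pseudocount of 1 FPKM and 147 with a minimum level of 5 FPKM, where those higher were 765, 418 and 475. Without rank matching there were 652 higher and 187 lower, and scaling to an equal median or sum gave 637 and 197 or 638 and 193. List members called were 143, or 329 at 2-fold and 70 at 8-fold. Leaving out each library gave 579 to 621 higher, 234 to 253 lower, 136 to 147 list members, 83 to 86 named genes called on IL-2 withdrawal and 112 to 117 on activation. Matching all shared names gave 594 higher and 244 lower, and matching the 18 by Entrez ID 593 and 241, both chosen after seeing the data.

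Of 138 named genes compared, all 114 called kept their sign in each of the 14 settings, and 24 lost the call in at least 1. Without activated replicate 1 the calls of Ctla4 (-1.58), Il18rap (1.97), Clec2i (1.83), Hcst (1.91), Tespa1 (1.84) and Rrp12 (-1.998) were lost, and without activated replicate 3 those of Il7r (1.98), Bcl2 (2.00), H2-Aa (-1.65), Utp14a (-1.93) and Rrp12 (-1.99). Without activated replicate 2 the calls of Selenbp1 (1.76), Cd86 (1.79), Hcst (1.99), Utp14a (-1.98) and Rrp12 (-1.98) were lost. Slc19a1 lost its call without CTL replicate 1 (-1.98) and without activated replicate 1 or 3 (both -1.99), and H2-Aa also without CTL replicate 1 (-1.98) or 3 (-1.90), without rank matching (-1.76), with median (-1.80) or sum (-1.79) scaling, by percentile rank and with a pseudocount of 1 FPKM (-1.28). The median of the JAK and STAT list, 0.00, and that of the stem-like factors, 0.05, were below 0 in 5 and 3 settings.

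With the replicate block, which follows the replicate numbers, 85 named genes were called on IL-2 withdrawal and 116 on activation. These were the same counts as without it, and no call of a value given in the text changed. The changes of Id2 and Bcl2 on activation, neither called, turned direction without activated replicate 3 (-0.14 and 0.12) and ranged from -0.14 to 0.29 and from -0.20 to 0.12 as each library was left out. Without activated replicate 3 Prf1 (-0.97) and Crtam (0.99) fell short of 2-fold. On withdrawal Tbx21 (1.05) and Ccr2 (1.04) passed 2-fold without replicate 3 of CTL without IL-2, and Id2 (-1.002) and Ccr2 (1.06) without replicate 1 of CTL in IL-2. Gzma on activation lost its call in 5 settings, with adjusted p up to 0.06 by limma, and Lag3 on withdrawal in 3. Fitting only the groups compared changed nothing in the CTL table, which holds no others. The cause of these changes was not tested. Low values carry 2 decimals and no read count, so folds of genes near 0.1 FPKM depend on the pseudocount.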

Other observations

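In 18 names shared by the tables the Entrez IDs differed, and 19 rows of the CD8 table carried IDs that the CTL table gives to other names. They are neighbours in alphabetical order, with names from March2 to Mark2 and from Sephs1 to Sept11. The row named Marcksl1 in the CD8 table, for example, carried the ID that the CTL table pairs with Marcks. Matched by name, 7 of the 18 would have been called, and matched by Entrez ID 3 of the 19 rows. A further 769 shared names had no Entrez ID in at least one table and could not be checked in this way.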
